A study of Schizosaccharomyces pombe with 8 samples.

Results

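The cytosolic small ribosomal subunit of *Schizosaccharomyces pombe* is encoded here by 48 protein-coding genes whose symbol is *rps* followed by a digit. They are 48 of the 55 nuclear *rps* genes of the annotation, and the other 7 lie beyond position 3750000 of chromosome I, where the probe coordinates do not match the annotation. All 48 had a value, out of 4276 protein-coding genes with a value, with 21 on chromosome I, 20 on chromosome II and 7 on chromosome III. They fall into 31 protein families by symbol, and in 16 of these at least 2 copies were measured. The choice used symbols and positions only, not the measurements.

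The small subunit binds mRNA and holds the decoding centre, in which codons are read by transfer RNAs. Its proteins are needed in equal amounts, and growing yeasts transcribe their genes at very high rates, with the rate falling when the nutrient-sensing TOR pathway is turned down by nitrogen starvation. In fission yeast many ribosomal protein genes lack a TATA box and carry instead a HomolD box, often with a HomolE box next to it, as core elements of their promoters. Trimethylation of histone H3 at lysine 4 (H3K4Me3) is laid down by the Set1 complex over the start of transcribed genes. H3 itself is depleted at active promoters, just upstream of the 5′ end of the gene.

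H3 and H3K4Me3 were measured by ChIP-on-chip in diploid cells of strain PN2159 (homozygous for *h+* and for *pat1-114*, with *ade6-M210* over *ade6-M216*), in which inactivation of the temperature-sensitive Pat1 kinase at 34°C sets off meiosis. All 4 groups carried this genotype and were sampled as premeiotic S phase began. The −N cells had been starved of nitrogen and were re-fed with it, and were taken 2 h after the shift, whereas the +N cells had grown in nitrogen-rich minimal medium with an arrest in G1 by the pheromone M-factor, and were taken 30 min after it. Nitrogen history, pheromone, re-feeding and time after the shift therefore cannot be told apart in any difference between +N and −N. Each antibody had 2 arrays per condition, 8 arrays in all. The labels number the 2 replicates without saying more, and the study's supplement calls its replicates biological.

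All values below are log2 ratios of ChIP over input signal after subtraction of each array's median. A gene's level is their average in a window that starts 250 bp before the annotated 5′ end and ends 750 bp past it. The *rps* genes had 136 probes there, 1 to 4 per gene with a median of 3, and no probe served 2 of them. Replicate 1 of all 4 groups was on slide 1 and replicate 2 on slide 2. The ChIP channel was well above background for 43.95% to 88.37% of probes on slide 1 and for 91.11% to 98.33% on slide 2. For the probes of the *rps* genes this held in 482 of 544 measurements of H3 and 506 of 544 of H3K4Me3. No dye was swapped, since by the labels the ChIP DNA was in the red channel on all 8 arrays, and mitochondrial probes lay at −4.54 to −2.85 on the log2 scale relative to nuclear probes on every one of them. The number of arrays limits the precision of every value.

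The promoters of the *rps* genes shared sequence elements that the choice of genes did not use. The HomolD box, searched as CAGTCACA on both strands in the 250 bases upstream of the 5′ end, was present in 29 of 48 promoters (60.4%), against 2.61% of all 4365 promoters of that length. The nearest full box of each promoter started 43 to 75 bases upstream, with a median of 52. This nearest box lay on the coding strand in 16 promoters and on the other strand in 13. The HomolE box, searched as ACCCTACCC on both strands, was present in 20 promoters (41.7%, against 1.35% of all). Its nearest match lay farther out, 59 to 90 bases upstream. Several promoters without the full HomolD box carried its first 7 letters. This shorter core, CAGTCAC, was added after the sequences had been seen and is contained in every full box. It occurred in 43 of 48 promoters (89.6%) and in 4.58% of all promoters. The core or a HomolE box occurred in 47 of the 48 promoters (97.9%, against 5.02% of all), and *rps902* was the exception. Both occurred together in 16. The 76 genes of the large subunit (*rpl* and *rpp*) had the HomolD box about as often (61.8%) and the HomolE box in 22.4%. A match of letters is a description and shows no binding.

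The promoters of the families that differed most between copies in H3 or H3K4Me3 are shown. They give the 120 bases upstream of the 5′ end from the RefSeq assembly ASM294v3, with HomolD boxes or cores and HomolE boxes in capitals.
rps601, chrI:187584-187703, minus strand: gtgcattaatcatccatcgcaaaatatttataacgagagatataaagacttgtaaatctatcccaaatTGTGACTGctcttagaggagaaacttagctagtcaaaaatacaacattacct
rps602, chrI:3319130-3319249, plus strand: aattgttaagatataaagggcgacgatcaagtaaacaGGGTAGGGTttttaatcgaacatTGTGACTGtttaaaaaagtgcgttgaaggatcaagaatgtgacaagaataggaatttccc
rps1401, chrI:3436124-3436243, plus strand: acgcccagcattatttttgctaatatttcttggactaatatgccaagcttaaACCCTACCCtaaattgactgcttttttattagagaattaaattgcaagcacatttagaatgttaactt
rps1402, chrII:1792243-1792362, plus strand: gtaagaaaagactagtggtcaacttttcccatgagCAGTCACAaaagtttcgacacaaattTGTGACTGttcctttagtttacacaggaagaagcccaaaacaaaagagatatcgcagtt
rps401, chrII:3245010-3245129, plus strand: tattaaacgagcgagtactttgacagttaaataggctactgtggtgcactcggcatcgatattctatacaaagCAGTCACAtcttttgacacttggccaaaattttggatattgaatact
rps402, chrII:1651834-1651953, minus strand: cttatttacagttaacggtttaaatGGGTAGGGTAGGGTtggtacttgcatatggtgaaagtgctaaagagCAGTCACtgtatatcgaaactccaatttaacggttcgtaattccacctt
rps403, chrI:3399121-3399240, plus strand: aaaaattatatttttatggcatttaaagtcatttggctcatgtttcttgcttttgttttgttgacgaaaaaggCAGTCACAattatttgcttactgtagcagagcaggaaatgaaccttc
rps1701, chrII:604406-604525, minus strand: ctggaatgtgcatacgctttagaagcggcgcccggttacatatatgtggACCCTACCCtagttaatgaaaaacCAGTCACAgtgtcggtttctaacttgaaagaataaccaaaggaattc
rps1702, chrIII:917732-917851, plus strand: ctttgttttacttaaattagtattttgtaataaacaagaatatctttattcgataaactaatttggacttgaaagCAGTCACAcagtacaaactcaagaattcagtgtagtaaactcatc
rps1801, chrII:3620464-3620583, minus strand: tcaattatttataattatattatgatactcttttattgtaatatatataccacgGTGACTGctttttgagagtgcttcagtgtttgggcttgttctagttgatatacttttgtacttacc
rps1802, chrIII:1033482-1033601, minus strand: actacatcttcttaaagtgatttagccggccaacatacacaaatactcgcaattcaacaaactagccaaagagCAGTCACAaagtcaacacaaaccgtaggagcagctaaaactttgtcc

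*rps402* carried 2 overlapping HomolE matches and a HomolD core, while its copies *rps401* and *rps403* each had a full HomolD box and no HomolE box. *rps602* had both boxes and *rps601* only HomolD. *rps1402* had 2 HomolD boxes in opposite orientation, and *rps1401* had a HomolE box with no HomolD core. Further genes at the ends of the range of H3 or H3K4Me3 had these promoters.
rps2402, chrII:2180783-2180902, plus strand: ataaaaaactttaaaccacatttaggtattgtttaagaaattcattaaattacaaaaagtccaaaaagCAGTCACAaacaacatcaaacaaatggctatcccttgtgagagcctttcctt
rps1501, chrIII:798124-798243, plus strand: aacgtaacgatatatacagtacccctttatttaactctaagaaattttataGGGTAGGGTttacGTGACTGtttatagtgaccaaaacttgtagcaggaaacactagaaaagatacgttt
rps2802, chrIII:1827367-1827486, minus strand: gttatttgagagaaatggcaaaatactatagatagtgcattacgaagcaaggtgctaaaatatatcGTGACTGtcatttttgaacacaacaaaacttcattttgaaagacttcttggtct
rps29, chrII:516308-516427, plus strand: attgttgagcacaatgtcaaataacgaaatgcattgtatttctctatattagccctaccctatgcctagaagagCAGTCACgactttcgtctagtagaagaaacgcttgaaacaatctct
rps20, chrIII:2096407-2096526, plus strand: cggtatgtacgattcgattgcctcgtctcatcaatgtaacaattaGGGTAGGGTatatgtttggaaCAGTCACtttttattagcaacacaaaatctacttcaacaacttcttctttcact

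*rps20* and *rps2* are transcribed away from each other, and their 250-base upstream regions on chromosome III meet.

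**Figure D1:**
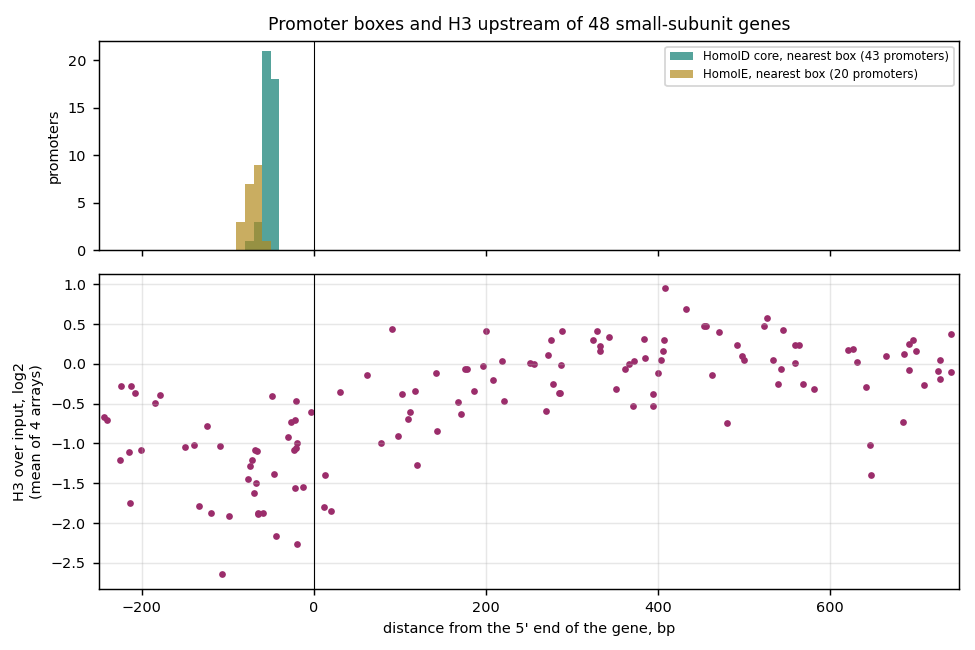
Upper panel, the number of promoters against the distance of the nearest HomolD core (43 promoters) or HomolE box (20 promoters) from the 5′ end in bp. Lower panel, mean H3 over input (log2, 4 arrays) of each of the 136 probes of the 48 genes against the distance of the probe from the 5′ end. The boxes lie at distances at which H3 was low.

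The *rps* genes had low H3 upstream of the 5′ end and high H3K4Me3 downstream of it. In bins of 200 bp, their mean H3 was lowest in the bin centred 100 bp upstream, at −1.29 over 34 probes. The 4 arrays gave −1.27 and −1.39 in −N and −1.35 and −1.14 in +N. In this bin the large subunit had −1.13 and all other genes −0.94. H3 of the *rps* genes then rose to 0.16 in the bin centred 500 bp downstream. It fell again to −0.31 at 900 bp, where the large subunit stood at −0.16 and all other genes at 0.15. This second drop lies past the end of most *rps* genes, whose median length is 686 bp (452 to 1270 bp), against 1779.5 bp for all genes with a value. H3K4Me3 peaked in the bin centred 300 bp downstream, at 3.34 against 2.49 for all other genes, and fell to 0.71 at 900 bp, against 0.01. The large subunit had 3.39 and 0.65 in the same bins.

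**Figure D2:**
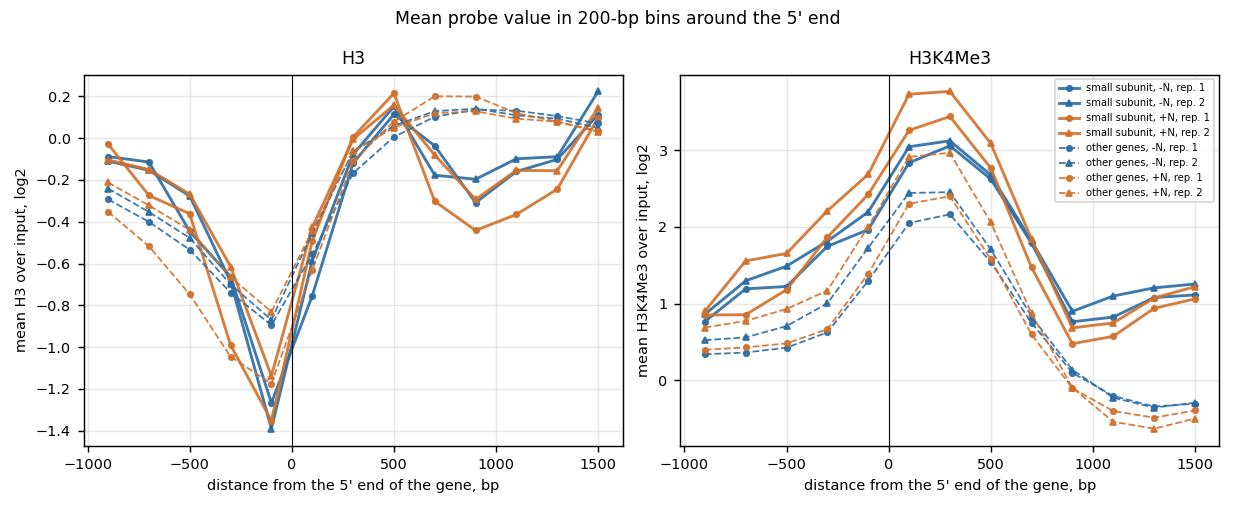
Mean H3 (left) and H3K4Me3 (right) over input, log2, in 200-bp bins against the distance from the 5′ end in bp, with 1 line per array, solid for the 48 small-subunit genes and dashed for all other genes, blue for −N and orange for +N. H3 of the small-subunit genes falls to −1.29 on average just upstream of the 5′ end, and their H3K4Me3 lies above that of the other genes in every bin.

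Averaged over the whole window, the median H3K4Me3 of the 48 genes was 2.66, against 2.06 for all genes and 2.65 for the large subunit. Their medians on the single arrays were 2.44 and 2.55 in −N and 2.80 and 3.01 in +N, and those of all genes 1.82 and 2.07 in −N and 1.88 and 2.45 in +N. The *rps* genes thus stood above all genes on each array. On the mean of the 4 arrays, 31 of 48 lay above the 75th percentile of all genes and 1 below the 25th. The median H3 was −0.54, against −0.31 for all genes and −0.40 for the large subunit, with 21 of 48 genes below the 25th percentile of all genes. The H3 order depended on the window. From the 5′ end to 500 bp downstream, the median H3 of the 44 *rps* genes with a probe there was −0.06, above the −0.20 of all genes, whereas H3K4Me3 remained higher (3.39 against 2.68). In the upstream bases alone, the 36 *rps* genes with a probe had a median H3 of −1.09. It was −0.91 for all genes and −1.12 for the large subunit.

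Levels differed more between genes than between replicates. The SD of the gene means was 0.53 for H3K4Me3 and 0.41 for H3, and the pooled SD between replicates was 0.31 and 0.24. Across the 48 genes, levels in −N and +N had a Pearson's r of 0.86 for H3K4Me3 and 0.85 for H3, and H3 and H3K4Me3 levels of 0.31. These genes share arrays and probes, and the correlations are descriptive. H3 levels also went with the placement of probes: r with the mean distance of the probes from the 5′ end was 0.38, and the 12 genes without an upstream probe had a median H3 of −0.09, against −0.59 for the 36 with one.

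Among proteins of the head of the subunit, *rps1501*, whose product reaches the decoding centre, had the highest H3K4Me3 of all members, with 3.32 and 3.55 in −N and 3.87 and 3.92 in +N (mean 3.67 ± 0.28, SD, n = 4). The lowest H3K4Me3 of all members was also at genes of head proteins. *rps2802*, for a small protein near the mRNA exit, had 0.89 and 0.84 in −N and 0.73 and 1.22 in +N (0.92 ± 0.21), and all 4 arrays lay below those of the next gene. *rps29*, for a zinc-binding protein, had 2.08 and 1.70 in −N and 1.71 and 2.01 in +N (1.88 ± 0.20). *rps20* had 1.99 and 2.26 in −N and 2.15 and 1.94 in +N (2.09 ± 0.15), and did not differ from *rps29* beyond the spread of the arrays. The probes of *rps20* lay at −240.5, −23.5 and 696.5 bp, and the gene is 491 bp long. No probe used lay within it, so its level describes the flanks of the gene. *rps2802* and *rps29* are short genes (462 and 452 bp), and their probes at 740.5 and 641.0 bp, past the gene, read −0.71 and 0.87, while those at 117.5 and 285.5 bp read 3.21 and 3.91. With the window ended at the 3′ end of the gene, an alternative added after the data had been seen, their means were 1.91 and 2.38.

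Among proteins of the body and platform, *rps1402*, for a platform protein, had 3.32 and 3.40 in −N and 3.89 and 3.91 in +N (3.63 ± 0.31), and *rps601* had 2.52 and 3.91 in −N and 3.82 and 4.10 in +N (3.59 ± 0.72). *rps1501*, *rps1402* and *rps601* overlapped. *rps601*, 1 of 2 genes for the protein that the S6 kinase branch of TOR signalling phosphorylates, had a single probe, and its first −N array stood apart from the other 3.

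For H3, the lowest member was *rps2402*, for a protein of the body, with −1.48 and −1.15 in −N and −1.64 and −1.33 in +N (−1.40 ± 0.21). *rps602* had −0.92 and −1.38 in −N and −0.54 and −0.97 in +N (−0.95 ± 0.34). Both had only 2 probes, 1 of them upstream of the 5′ end, at −43.5 and −58.5 bp, and these probes were in the ChIP channel not well above background on 1 (*rps2402*) and 2 (*rps602*) of the 4 H3 arrays. Without dim probes, and also from the 5′ end to 500 bp, the mean was −0.63 for *rps2402* and −0.03 for *rps602*. The highest H3 was at *rps402*, for a protein of the body, with 0.15 and 0.39 in −N and 0.79 and 0.40 in +N (0.43 ± 0.27), but its mean was −0.10 with outlier probes kept. *rps1701* had 0.14 and 0.60 in −N and 0.32 and 0.58 in +N (0.41 ± 0.22), and *rps1801*, for a head protein that contacts the large subunit, had 0.66 and 0.00 in −N and 0.41 and 0.42 in +N (0.37 ± 0.27). These 3 genes overlapped, and none had an upstream probe.

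**Figure D3:**
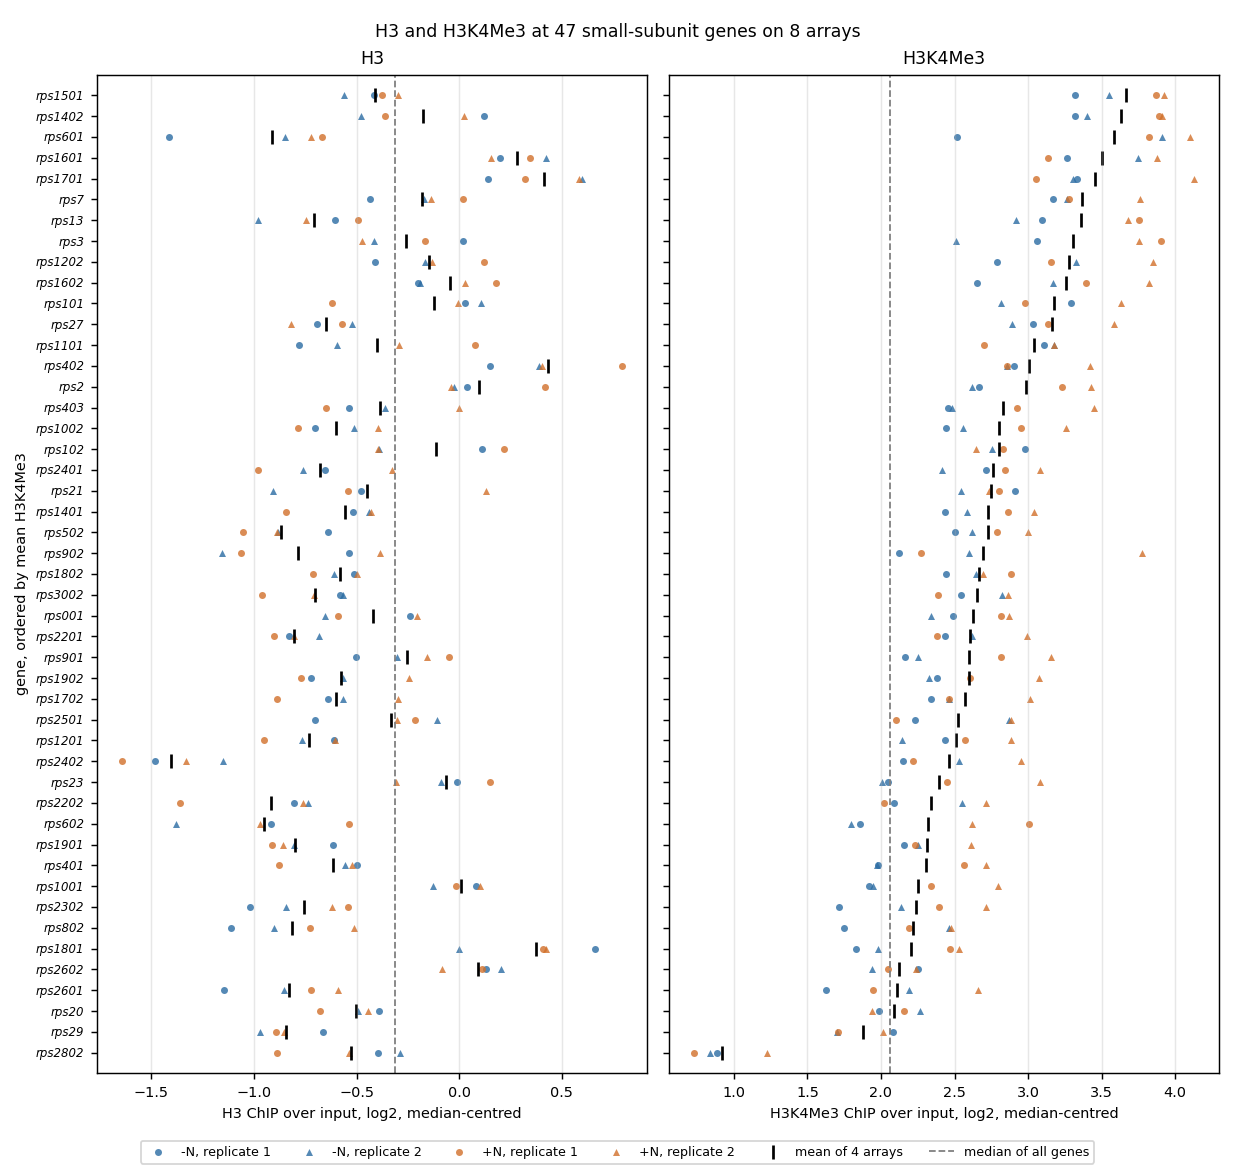
H3 (left) and H3K4Me3 (right) over input, log2, for 47 of the 48 genes ordered by mean H3K4Me3, with 1 point per array (blue −N, orange +N, circles replicate 1, triangles replicate 2), a black bar for the mean of 4 arrays and a dashed line for the median of all genes (−0.31 and 2.06). Mean H3K4Me3 runs from 0.92 at *rps2802* to 3.67 at *rps1501*.

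Levels were set beside the promoter boxes. The median H3K4Me3 was 2.61 for the 29 genes with the full HomolD box and 2.73 for the 19 without, and 2.74 for the 20 with HomolE and 2.62 for the 28 without. The corresponding medians of H3 were −0.45 and −0.56, and −0.47 and −0.58. These differences were not tested.

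Copies of 1 protein, grouped by symbol, carry similar coding sequences, with 74.05% to 93.95% identity over 18 pairs and a median of 88.07%. The paralogues thus ask how far chromatin differs between genes of 1 family. The difference between the highest and the lowest copy had a median of 0.56 for H3 and 0.34 for H3K4Me3 over the 16 families. In 10 of 16 families for H3, and 10 of 16 for H3K4Me3, these copies stood in the same order on all 4 arrays. The highest and lowest copy were chosen by the values themselves, and with 4 arrays an exact sign-flip test (two-sided) cannot give a p below 0.125, so that these differences are given without a test. Copies also had their probes at different distances from the 5′ end. With each probe taken relative to the mean of all genes at its distance (100-bp bins, added after the data had been seen), the direction held in 9 of the 10 families for H3 and in 9 of 10 for H3K4Me3. It held on all 4 arrays in 7 and 4 of them.

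For H3K4Me3 the largest difference was between the S6 genes. *rps601* exceeded *rps602* by 0.66 to 2.12 on the 4 arrays (mean 1.27 ± 0.67, SD), and by 1.68 relative to all genes at the same distances. The value of *rps602* came from a probe at −58.5 bp, which read 1.25 and was well above background on 2 of 4 arrays, and a probe at 196.5 bp, which read 3.39. The single probe of *rps601*, at −30.5 bp, read 3.59. Without dim probes the difference dropped to 0.20. The platform genes *rps1402* and *rps1401* differed on every array by a similar amount, 0.82 to 1.03 (mean 0.90 ± 0.09), and by 1.12 relative to all genes at the same distances. The probes of *rps1401* at −139.5, 109.5 and 533.5 bp read 0.96, 3.08 and 4.15. Those of *rps1402* at −48.5, 463.0 and 630.5 bp read 3.08, 4.26 and 3.55. *rps1701* exceeded *rps1702* by 0.89 ± 0.23, but by 0.10 at matched distances, and the sign turned (−0.38) in the window from the 5′ end to 500 bp. The single probe of *rps1701* lies at 288.5 bp and read 3.46, while the probes of *rps1702* at 186.5 and 406.5 bp read 3.81 and 3.86.

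For H3, *rps402* exceeded *rps401* by 1.05 ± 0.44, and by 0.67 relative to all genes at the same distances, with *rps403* between them (−0.39). *rps1701* exceeded *rps1702* by 1.01 ± 0.21 (0.89 at matched distances), and *rps1801* exceeded *rps1802* by 0.95 ± 0.26 (0.74 at matched distances). All 3 kept their direction on all 4 arrays at matched distances but shrank under other settings. *rps402* minus *rps401* was 0.33 without dim probes, 0.48 with outlier probes kept and 0.25 from the 5′ end to 500 bp. *rps1701* minus *rps1702* was 0.46 without dim probes and 0.43 from the 5′ end to 500 bp, where *rps1801* minus *rps1802* was 0.53. *rps1801* and *rps1802* each had 1 probe that matched the other copy at 90% identity or more, and *rps401* had 1 that matched *rps402*, so that the DNA of the 2 copies may not have been told apart there.

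**Figure D4:**
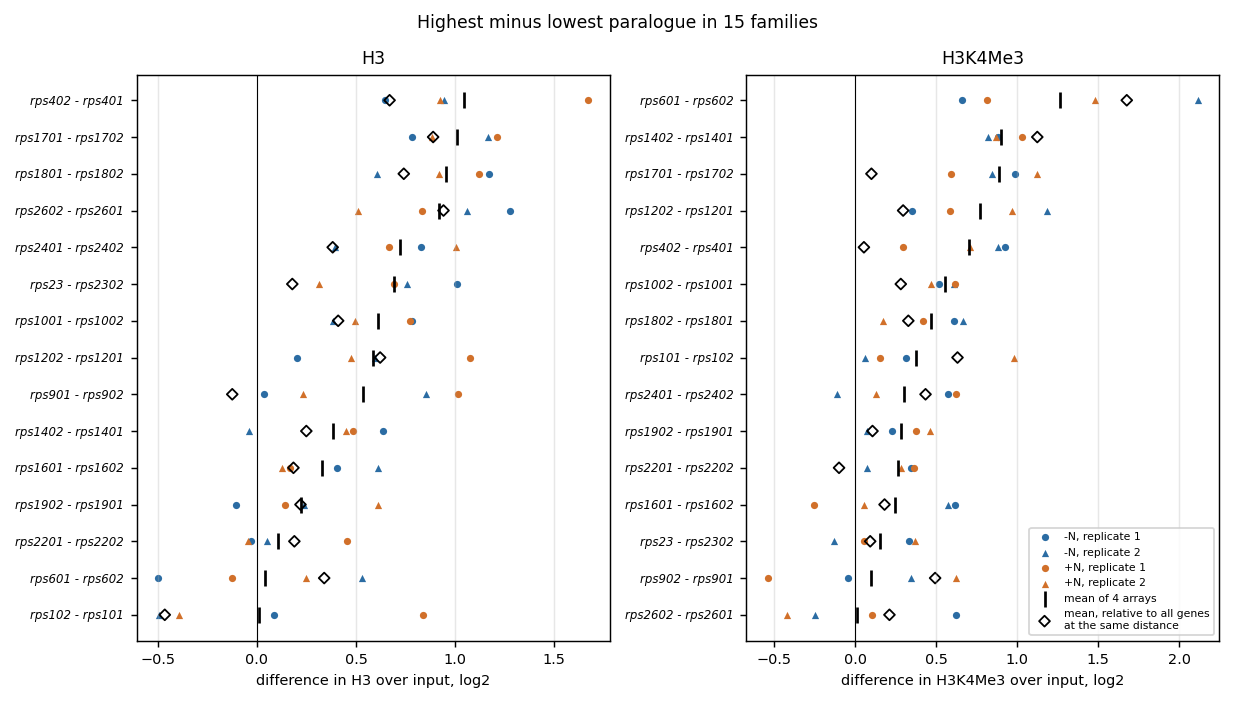
Difference between the highest and the lowest copy of 15 of the 16 families in H3 (left) and H3K4Me3 (right), log2, with 1 point per array (colours and symbols as for the levels), a black bar for the mean and an open diamond for the mean relative to all genes at the same distance from the 5′ end. *rps1402* minus *rps1401* stays between 0.82 and 1.03 on the 4 arrays, while the diamond of *rps1701* minus *rps1702* lies near 0 for H3K4Me3.

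Mean H3K4Me3 was higher in +N than in −N at 42 of the 48 *rps* genes (87.5%, against 75.4% of all genes), but no single gene passed the test unless the slide was fitted as a block. The median change was 0.40 on the log2 scale against 0.25 for all genes and 0.38 for the large subunit. On slide 1 the medians were 0.25 and 0.12 (*rps* and all genes), and on slide 2 they were 0.52 and 0.37. At 25 of the 48 genes both +N arrays exceeded both −N arrays (52.1%, against 51.3% of the large subunit and 29.4% of all genes tested). None had both +N arrays below both −N arrays, against 3.7% of all genes. With quantile normalization 31 of the 48 were higher in +N, with a median change of 0.12 against 0.05 for all genes. The share of all genes higher in +N is not given for that setting, so this count has no background beside it. The shift of all genes moved with the scaling of the arrays, from 0.05 with quantile normalization to 0.47 with centring on the 10th percentile. The *rps* genes lay above it by 0.04 to 0.20 under every alternative run, with 0.15 in the main setting. This excess was 0.07 with quantile normalization and 0.09 relative to all genes at the same distance. Leaving out the centring, or centring on the 10th percentile, cannot change it.

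No *rps* gene passed limma at an adjusted p of 0.05 for H3K4Me3 (0.0468% of all genes did). The smallest adjusted p among them was 0.972, and 2 had an unadjusted p under 0.05 (4.17%, against 4.12% of all genes). With the slide, which is the replicate number, as a block in limma, 4.75% of all genes were called, of which those higher in +N made up 3.84% and those lower in +N 0.912% of all genes, with 2 *rps* genes among the higher, none among the lower and 15 at an unadjusted p under 0.05 (31.2%, against 19.3% of all genes). In this fit each gene kept 1 residual degree of freedom, against 92.5 from a prior spread shared by all genes. The p-values with the block therefore rest mostly on that shared spread. *rps3*, for a head protein at the mRNA entry, had 3.06 and 2.51 in −N and 3.91 and 3.75 in +N (change 1.04 on the log2 scale, SE 0.43 without the block and 0.28 with it, limma adjusted p = 0.972 without and 0.0144 with it). Both of its probes read higher in +N, by 0.68 at −19.5 bp and by 1.40 at 522.5 bp. *rps602* had 1.86 and 1.80 in −N and 3.01 and 2.62 in +N (change 0.98, limma adjusted p = 0.022 with the block). Both +N arrays exceeded both −N arrays for these genes, and the same held for *rps901*, for a protein of the body at the mRNA entry, with 2.16 and 2.26 in −N and 2.81 and 3.16 in +N (change 0.78, limma adjusted p = 0.972 without the block).

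Along the genes, the H3K4Me3 difference of the *rps* genes was positive around the 5′ end and negative beyond the genes. The mean change was 0.55 in the bin centred 100 bp downstream, with 0.42 on slide 1 and 0.68 on slide 2. In that bin it was 0.57 for the large subunit and 0.36 for all other genes. At 900 bp the *rps* genes had −0.25, with −0.29 and −0.22 on the slides, against −0.42 for the large subunit and −0.22 for all other genes. The 2 slides had the same sign in both bins.

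**Figure D5:**
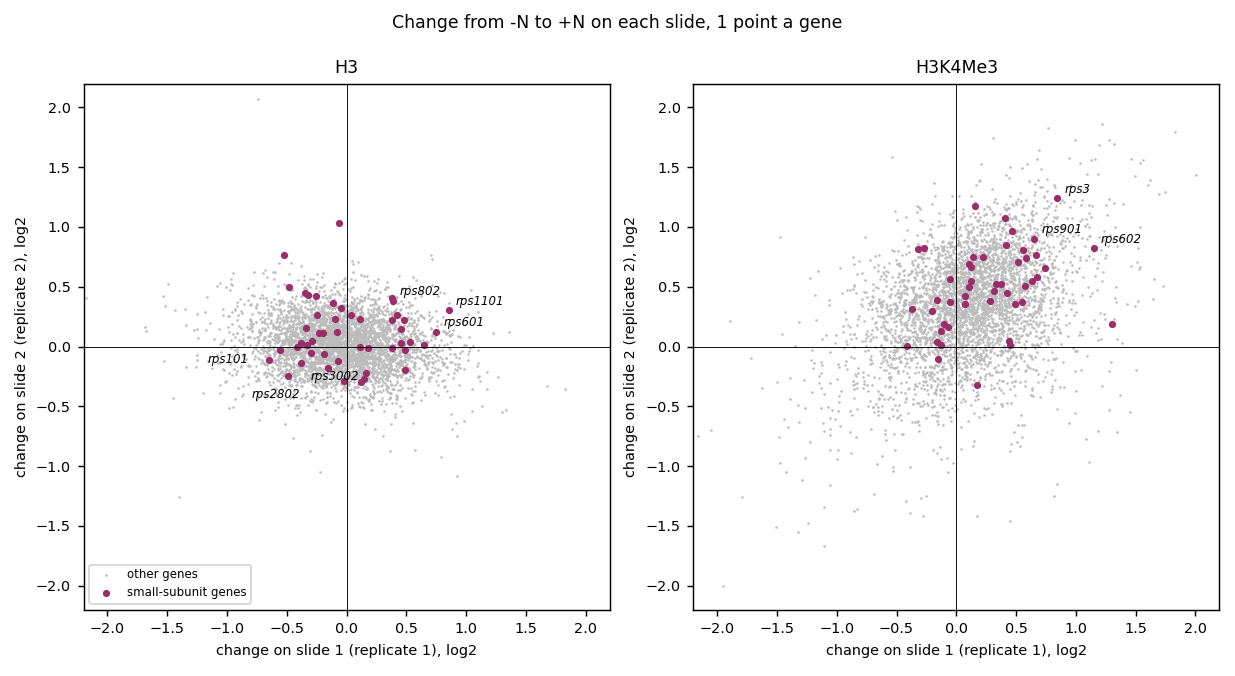
Change from −N to +N (log2) on slide 2 against that on slide 1, for H3 (left) and H3K4Me3 (right), with 1 point per gene, purple for the 48 small-subunit genes and grey for the others. Genes beyond 2.2 on either axis, 4 for H3 and 3 for H3K4Me3, are not drawn. For H3K4Me3 most purple points lie above 0 on both slides, and for H3 they scatter around 0.

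H3 had no common direction of change. The median change of the *rps* genes was 0.05 against −0.01 for all genes, with −0.07 on slide 1 and 0.08 on slide 2. Changes on the 2 slides had an r of −0.05 across the 48 genes, and the sign was the same on both slides in 23 of 48. Both +N arrays exceeded both −N arrays at 11 genes (22.9%, against 22.4% of the large subunit and 12.7% of all genes). They lay below both −N arrays at 6 (12.5%, against 7.89% of the large subunit and 13.6% of all genes). No *rps* gene passed limma with or without the block (0% of all genes without it and 0.0468% with it), and 1 had an unadjusted p under 0.05 in each fit (2.08%, against 1.43% of all genes without the block and 3.3% with it).

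The largest H3 differences with all array pairs in 1 direction were as follows. *rps1101*, for a protein of the body, had −0.78 and −0.60 in −N and 0.07 and −0.29 in +N (change 0.58, SE 0.22, limma adjusted p = 1). *rps601* had −1.41 and −0.85 in −N and −0.67 and −0.72 in +N (change 0.44). *rps802* had −1.11 and −0.90 in −N and −0.73 and −0.51 in +N (change 0.38), and this change became −0.13 without dim probes. In the other direction, *rps101*, for a platform protein, had 0.03 and 0.10 in −N and −0.62 and −0.01 in +N (change −0.38). *rps2802* had −0.39 and −0.29 in −N and −0.88 and −0.54 in +N (change −0.37), and *rps3002* had −0.58 and −0.56 in −N and −0.96 and −0.71 in +N (change −0.26). These values passed no test.

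The difference between the H3K4Me3 change and the H3 change was tested as an interaction in limma over all 8 arrays. Its median over the *rps* genes was 0.35 against 0.26 over all genes. No *rps* gene was called without or with the block (0% of all genes in both fits), with 1 and 4 genes at an unadjusted p under 0.05 (2.08% and 8.33%, against 2.6% and 9.78% of all genes).

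Other genes of the same process were taken from lists. The further proteins of the small subunit, *cpc2* (the scaffold protein RACK1) and the ubiquitin fusions *ubi3* and *ubi5*, had H3K4Me3 levels of 2.88, 2.57 and 2.91, within the range of the *rps* genes. Their H3K4Me3 changes were 0.13, 0.30 and 0.17, and none passed limma with or without the block. Of 30 listed symbols for assembly and export of the small subunit, 26 matched a gene with a value. Their median H3K4Me3 was 2.42 and its median change 0.28. This list had no gene called in either direction for H3 or H3K4Me3 with or without the block. Of 19 listed symbols for signalling to ribosomal protein genes and for their transcription, 15 matched a gene with a value. Their median H3K4Me3 was 2.53 and its median change 0.27, and again there was no call. Of all genes, 0.0468% were called for H3K4Me3 without the block and 4.75% with it, and 0% and 0.0468% for H3. With shares this low, the lack of calls in lists of this size says little about their genes.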

How the data were processed

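Genome-wide two-colour arrays (Agilent) were hybridized with ChIP DNA, amplified with T7 RNA polymerase, and with input DNA. The intensity values deposited by the authors, from Agilent Feature Extraction 10.7.3.1, were processed red and green signals, background-subtracted and dye-normalized, together with other columns of flags per the file headers. The log2 table deposited by the authors equalled log2 of red over green without centring and was not used for results. Log2 ratios were centred on each array's median, and 5402 probes (12.67%) marked as an outlier on any array were left out, which left 37239. The coordinates' build is not given in the sources used here. Against ASM294v3 no shift was needed in 43 of 51 segments, and the 8 others, all on chromosome I beyond 3750000, were left out. Gene values were compared with limma 3.58.1 in R 4.3.3 (lmFit, eBayes, two-sided, Benjamini-Hochberg over 4276 genes, threshold 0.05), per antibody on 4 arrays and as an interaction on 8. The limma fit per antibody was also run on simulated data with independent normal noise, which the fit itself assumes. That run cannot show whether calls hold in the real arrays. Sequences were read from RefSeq ASM294v3, near copies found with blastn 2.17.0 (90% identity over 50 bases).

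The *rps* genes, lists and tests were chosen with earlier results of these data known. Genes were named that limma called, that had the 3 largest rises or falls with all 4 array pairs in 1 direction, that had the 3 highest or 3 lowest levels, or that belonged to the 3 families with the largest spread in a constant order. Alternatives were other scalings, background correction (normexp on median spot signals, offset 50), probe filters, windows, the replicate block, and leaving out each array. 1 gene that this rule names is not reported here.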

Additional observations from a re-analysis of the deposited data

How the results depend on the processing

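Of 110 values under other settings for the main results, 92 kept their call or moved by less than the spread between replicates. The 110 include counts of calls that stood at 0 in the main setting. They also include differences between genes, which leaving out the centring or centring on the 10th percentile cannot change. The tally therefore does not measure how stable the results are. The median H3K4Me3 change of the *rps* genes (0.40) was 0.12 with quantile normalization, 0.62 with centring on the 10th percentile, 0.56 with normexp, 0.57 from the 5′ end to 500 bp and 0.11 relative to all genes at the same distance. It ran from 0.18 to 0.59 when 1 array was left out, the lowest without +N replicate 2 and the highest without +N replicate 1. The median H3 change (0.05) was 0.22 with centring on the 10th percentile and ran from −0.02 to 0.10 with 1 array left out. The H3 level of the *rps* genes minus that of all genes (−0.23) was 0.0027 without dim probes, −0.13 with outlier probes kept, 0.14 from the 5′ end to 500 bp, −0.32 with the window ended at the 3′ end and −0.14 relative to all genes at the same distance. The cause of these moves was not tested. The H3K4Me3 level minus that of all genes (0.60) stayed between 0.56 and 0.66, the H3 level between −0.27 and −0.20 and the upstream H3 level between −0.29 and −0.17 with 1 array left out. The median H3 difference between copies (0.56) was 0.30 with outlier probes kept, 0.36 relative to all genes at the same distance and 0.40 to 0.63 with 1 array left out. For H3K4Me3 (0.34) it was 0.42 with normexp, 0.41 with outlier probes kept, 0.44 from the 5′ end to 500 bp, 0.40 with the window ended at the 3′ end and 0.33 to 0.43 with 1 array left out. The H3 change of *rps802* turned to −0.13 without dim probes, and *rps1701* minus *rps1702* in H3K4Me3 to −0.38 from the 5′ end to 500 bp. The window ended at the 3′ end and the values relative to all genes at the same distance were chosen after seeing the data.

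With the replicate block, the count of *rps* genes called for H3K4Me3 went from 0 to 2, and no other count of calls changed, with 0 under every other setting and array left out. The deviations of replicate 1 from the group means had an r between −N and +N of 0.48 for H3K4Me3 and 0.15 for H3 over 4276 genes, and the numbers are the slides per the file headers. Each group has 2 arrays, and low ratios on slide 1 more often rest on spots not well above background.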
